A study of Mus musculus with 2 samples.

Results

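The genes described here are 43 genes that mark neurons and brain glia, read in 2 rhabdoid tumors (RT) of mice by bulk RNA-seq. They were given as a list of gene symbols and matched to the Ensembl IDs of the count table, and all 43 were found among its 55416 genes. They fall into 5 groups, namely 20 pan-neuronal genes, 6 transmitter genes, 5 genes of peripheral sensory neurons, 6 astrocyte genes and 6 oligodendrocyte genes. RT are aggressive tumors of early childhood in which SMARCB1, part of the SWI/SNF complex that remodels chromatin, is usually lost. Both tumors arose in Dppa3-cre::Smarcb1 mice on a C57BL/6 background, in which a floxed Smarcb1 allele met a Cre recombinase knocked in at Dppa3, a gene active in primordial germ cells. The study's methods name the animals as Smarcb1 Fl/+, that is heterozygous, and the labels give no age. The intracranial tumor lay at the trigeminal nerve and the extracranial tumor in the maxillary part of the face, and both carry the class MYC. Each location has 1 tumor and 1 library, with no normal tissue beside them, so location, animal and library cannot be told apart.

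Neurons share a core of genes for their cytoskeleton, such as neurofilaments and neuronal tubulin, for RNA binding and for the release of synaptic vesicles. Single types of neuron add the enzymes and vesicular transporters of their transmitter, and sensory neurons of ganglia such as the trigeminal ganglion add neurotrophin receptors and peripherin. Astrocytes, the supporting glia of the brain, take up glutamate and carry water channels, while oligodendrocytes wrap brain axons in myelin. The myelin of peripheral nerves comes from Schwann cells, which share Mbp and Cnp with oligodendrocytes, and many pan-neuronal genes are also read in neuroendocrine and other tumor cells.

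The intracranial library held 34545846 counts and the extracranial library 26915696, over 29670 and 27252 genes with at least 1 count. Levels are given as CPM, counts over the scaled library size in the usual unit. A background floor of 3 counts was set, which corresponds to 0.0863 CPM in the intracranial and 0.112 CPM in the extracranial library, and a count of 0 allows up to 0.106 and 0.138 CPM. Ratios are extracranial over intracranial on the log2 scale, with a 95% exact binomial interval, for the 21977 genes with 10 or more counts over both libraries. A gene was called where that whole interval lay beyond 4-fold. With no replicates these intervals cover counting error only, and no p-value is given. Smarcb1 RNA had 365 counts in the intracranial and 530 in the extracranial library. By staining, the paper reports loss of Smarcb1 protein in an intracranial and an extracranial tumor of this model. Bulk counts do not separate tumor cells from other cells, so they do not show that the tumor cells kept Smarcb1.

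Of the 20 pan-neuronal genes, 19 were above the floor in the intracranial and 17 in the extracranial library, whereas 3 of the 6 transmitter genes and 4 of the 6 oligodendrocyte genes were at or under it in both. More than 3 counts were found for 33 of the 43 genes in the intracranial and for 31 in the extracranial library. At or under 3 counts in both libraries were 7 genes, of which Slc17a6, Th and Olig2 had 0 counts in each. Summed over the 43 genes, the level was 320.6 CPM in the intracranial and 425.6 CPM in the extracranial library. In bulk RNA, fewer cells of a type and less RNA per cell cannot be told apart.

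**Figure D1:**
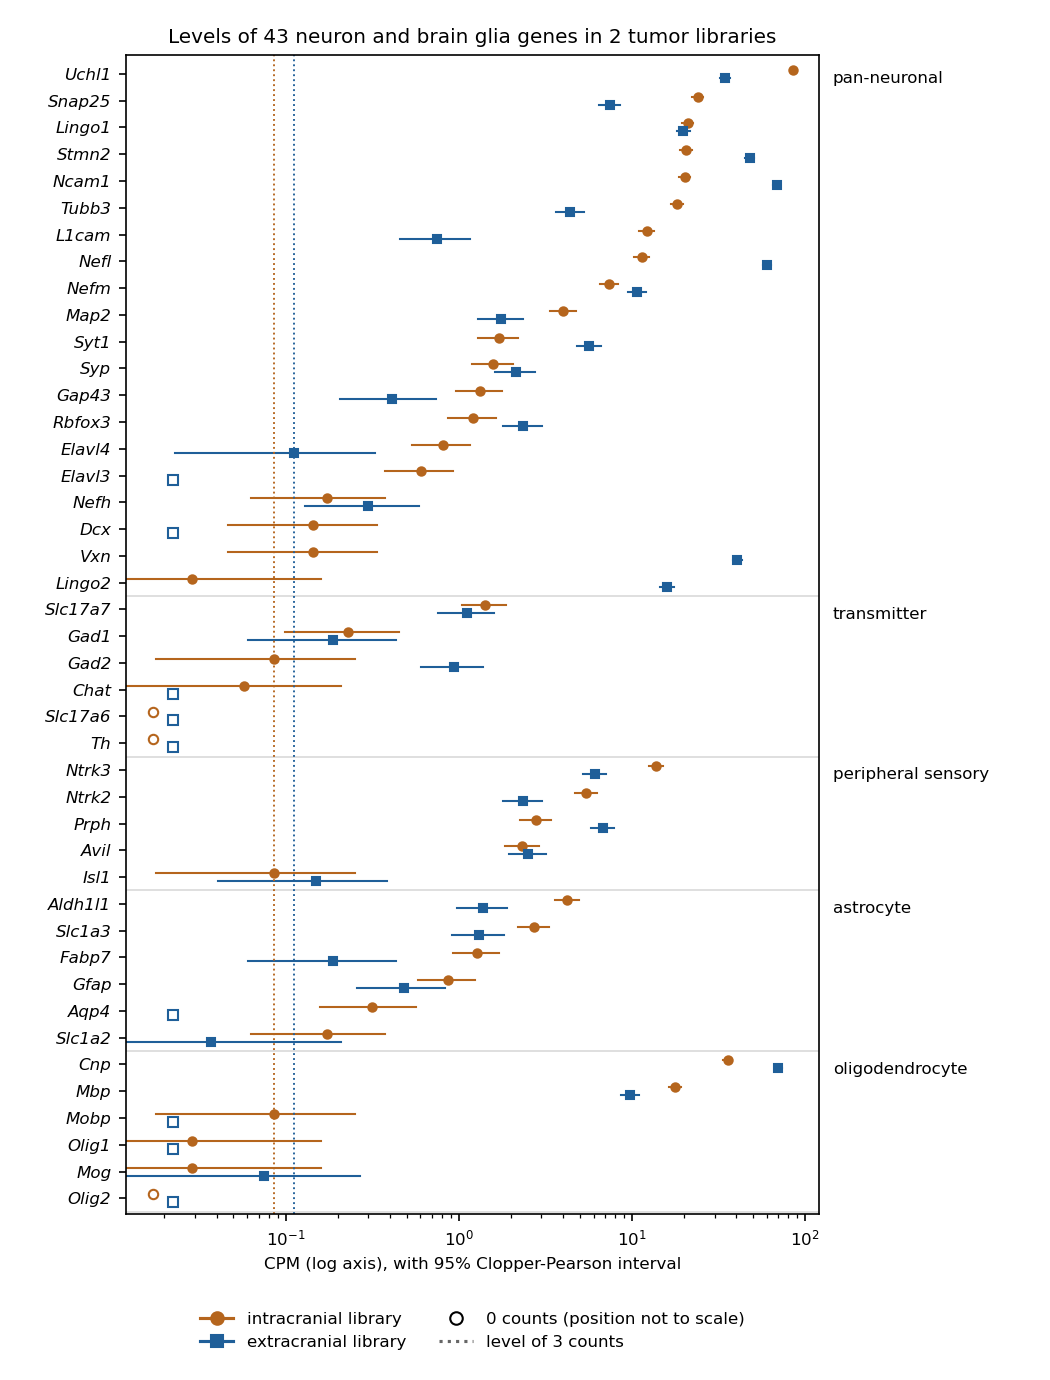
CPM of each of the 43 genes on a log axis with the 95% Clopper-Pearson interval of its count, circles for the intracranial and squares for the extracranial library, by gene group. Open symbols mark 0 counts, placed at the left and not to scale, and dotted lines mark 3 counts, 0.0863 and 0.112 CPM. The pan-neuronal genes span the whole axis, while 3 of the 6 transmitter genes and 4 of the 6 oligodendrocyte genes stay at or below the dotted lines.

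A ratio could be formed for 33 members. The other 10 were Dcx, Slc17a6, Th, Chat, Isl1, Slc1a2, Olig1, Olig2, Mog and Mobp, each with fewer than 10 counts in all. Called as higher in the extracranial library were 3 members, Vxn, Lingo2 and Nefl, in a comparison in which 1.78% of all genes with a ratio were called in this direction. Called as higher in the intracranial library were 2, L1cam and Elavl3, where 5.41% of all genes were called. The interval excluded an equal level for 11 members on the extracranial side, a share near the 29.2% of all genes, and for 15 on the intracranial side, against 32.2% of all genes. The remaining 7 differed by less than the counting error. The median log2 ratio of the 33 members was -0.33, against -0.04 over all genes with a ratio. All 5 called genes were in the pan-neuronal group, which held 19 of the 33 members with a ratio. Vxn and Lingo2 were known from earlier results of these data when the list was drawn up, so their calls are a description, and without them the median of the others was -0.83.

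**Figure D2:**
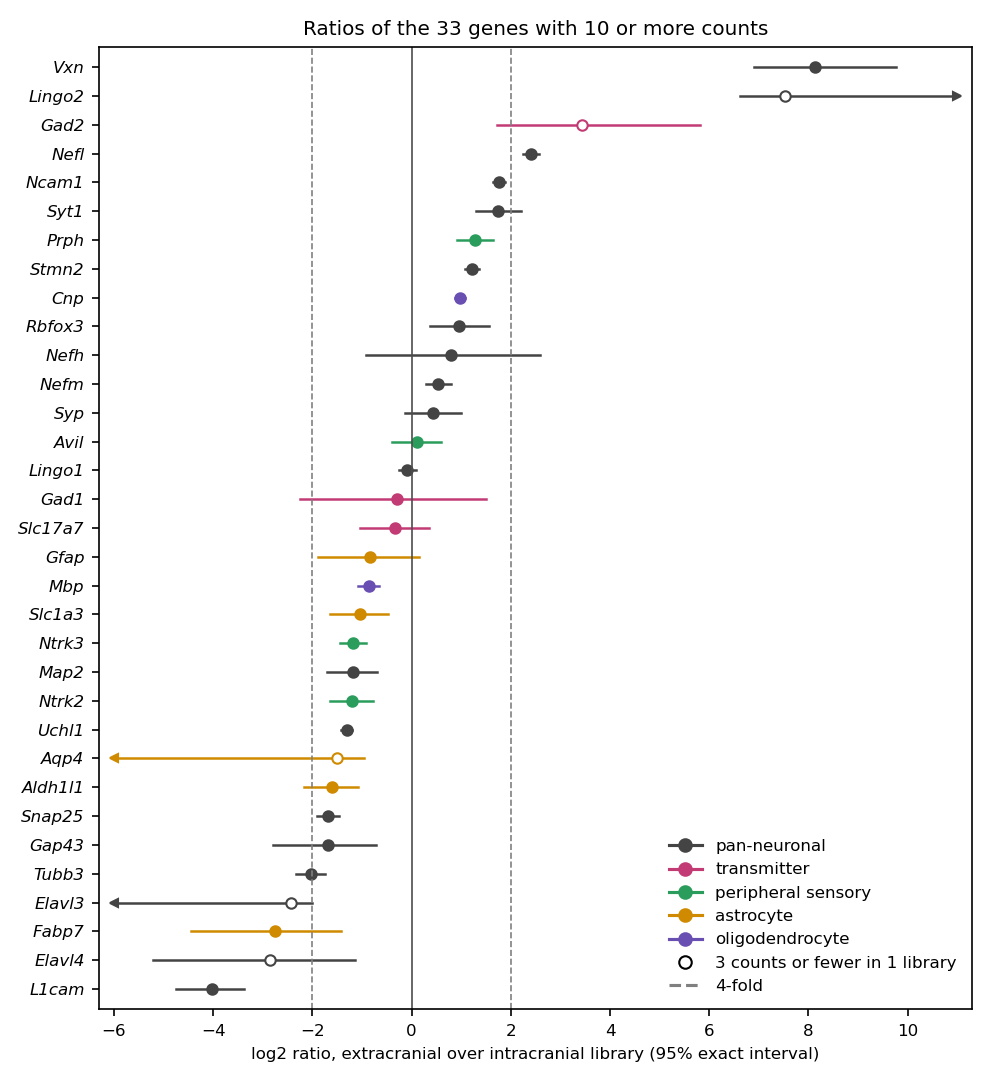
Log2 ratio of the extracranial over the intracranial library for the 33 members with 10 or more counts, in order, with 95% exact intervals and colors by gene group. Dashed lines mark 4-fold, white circles mark genes with 3 counts or fewer in 1 library, drawn at the ratio to the floor, and arrows mark intervals that run past the axis. Vxn at 8.13 and L1cam at -4.03 are the ends of the order, and all 5 astrocyte genes lie left of 0.

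Vxn (vexin, ENSMUSG00000067879), a gene of early neural differentiation, had 5 counts in the intracranial and 1081 in the extracranial library, or 0.144 and 40.4 CPM. The level was 281-fold higher in the extracranial library (log2 ratio 8.13, interval 6.91 to 9.76), which is the highest ratio among the 21977 genes when counts of 3 or fewer are set to 3. Its exons share 452 bases, 13.9% of its length, with 2610203C22Rik on the opposite strand, and that gene had 115 and 99 counts. The next genes along the chromosome, Adhfe1 with 45 and 5 counts and Mybl1 with 569 and 163, were not called. Both neighbours were higher in the intracranial library, the opposite side.

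Lingo2 (ENSMUSG00000045083), a transmembrane protein with leucine-rich repeats and an immunoglobulin domain, had 1 count in the intracranial and 425 in the extracranial library. The ratio was 552-fold, with an interval from 98.5-fold to 21848-fold. Its relative Lingo1, a brake on myelination and axon growth, had 727 and 528 counts, or 20.9 and 19.7 CPM. The Lingo1 levels did not differ beyond counting error (log2 ratio -0.08, interval -0.25 to 0.08). Lingo1 was therefore read in both tumors, and Lingo2 above the floor in the extracranial tumor alone. The neighbours C9orf72, with 918 and 706 counts, and Aco1, with 1452 and 1195, were not called.

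Nefl (ENSMUSG00000022055), the light chain of the neurofilaments that fill axons, had 396 counts in the intracranial and 1613 in the extracranial library, or 11.4 and 60.3 CPM. This is a 5.29-fold higher level (log2 ratio 2.40, interval 2.24 to 2.57), just past the limit of a call. The medium chain gene Nefm, beside it on the chromosome, had 256 and 287 counts, or 7.37 and 10.7 CPM, and its log2 ratio of 0.54 had an interval of 0.29 to 0.79. The heavy chain gene Nefh had 6 and 8 counts. The 3 chains, which assemble together in mature axons, thus stood at unequal levels, with the light chain far above the heavy chain in both tumors. Per kilobase of exon, Nefl reached 17.8 CPM and Nefm 1.85 in the extracranial library, while Nefh stood at 0.0749. Exons of Nefl and Nefm overlap on opposite strands by 1108 bases, 32.8% of Nefl and 19.2% of Nefm, so that reads there may have been shared or lost.

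On the intracranial side the call farthest from an equal level was L1cam (ENSMUSG00000031391), an adhesion molecule that guides growing axons. It had 423 counts in the intracranial and 20 in the extracranial library, or 12.2 and 0.747 CPM, and was 16.3-fold lower in the latter (log2 ratio -4.03, interval -4.75 to -3.38). Its exons share 100 bases, 1.36% of its length, on the same strand with Arhgap4, which had 407 and 1184 counts and so stood on the opposite side. Elavl3 (ENSMUSG00000003410), one of the RNA-binding Hu proteins of neurons, had 21 counts in the intracranial and 0 in the extracranial library. Against the floor of 3 counts it was 5.39-fold lower in the extracranial library, and the interval of its counts, which allows for more than 3, began at 4.01-fold, at the limit itself. Its relative Elavl4 had 28 and 3 counts, 7.19-fold lower with an interval from 2.22-fold to 36.9-fold, and was not called.

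The stretches upstream of the transcript start are shown for the called members with a window in RefSeq (GRCm38.p6) and for Gad2, as the 250 bases before a start on the gene's own strand. Many neuronal genes carry the RE1 element, a site of the repressor REST that silences them outside neurons. Capitals mark the left or right arm of that element. Lingo2 has 2 listed starts, the first at chr4:36718964-36719213 and the second at chr4:35845205-35845454, both on the minus strand. L1cam also has 2 listed starts with overlapping windows, and the one shown is chrX:73880791-73881040 on the minus strand, that of Elavl3 is chr9:22052024-22052273 on the minus strand, and that of Gad2 is chr2:22622077-22622326 on the plus strand.
Lingo2 start 1: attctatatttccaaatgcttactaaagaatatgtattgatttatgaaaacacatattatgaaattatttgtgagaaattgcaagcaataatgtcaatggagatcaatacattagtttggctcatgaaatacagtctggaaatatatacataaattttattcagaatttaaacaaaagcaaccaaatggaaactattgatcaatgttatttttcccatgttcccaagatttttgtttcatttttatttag
Lingo2 start 2: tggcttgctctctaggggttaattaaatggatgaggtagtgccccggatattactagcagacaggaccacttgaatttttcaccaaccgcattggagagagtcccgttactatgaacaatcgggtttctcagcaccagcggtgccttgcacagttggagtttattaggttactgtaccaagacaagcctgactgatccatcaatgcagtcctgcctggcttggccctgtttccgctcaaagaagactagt
L1cam: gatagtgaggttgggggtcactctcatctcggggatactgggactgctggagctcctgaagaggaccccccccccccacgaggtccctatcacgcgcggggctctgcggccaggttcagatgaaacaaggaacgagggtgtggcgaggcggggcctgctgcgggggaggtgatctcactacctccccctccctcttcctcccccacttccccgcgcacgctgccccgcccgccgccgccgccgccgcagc
Elavl3: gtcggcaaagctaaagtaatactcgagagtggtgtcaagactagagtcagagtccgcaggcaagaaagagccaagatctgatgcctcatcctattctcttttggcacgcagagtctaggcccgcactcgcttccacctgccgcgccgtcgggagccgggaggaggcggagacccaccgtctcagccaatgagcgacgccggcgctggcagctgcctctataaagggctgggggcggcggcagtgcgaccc
Gad2: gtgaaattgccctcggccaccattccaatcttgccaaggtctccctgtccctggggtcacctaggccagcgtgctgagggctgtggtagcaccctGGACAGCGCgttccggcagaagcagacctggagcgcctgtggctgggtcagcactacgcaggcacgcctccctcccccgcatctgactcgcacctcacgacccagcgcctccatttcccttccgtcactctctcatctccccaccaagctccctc
The 2 starts of Lingo2 differ in base content, with 25.2% G and C and 0 CpG in the first and 48.4% and 6 CpG in the second. The window shown for L1cam held 69.6% G and C with 20 CpG and that of its other start, chrX:73880835-73881084, 63.2% with 12 CpG. The window of Elavl3 held 61.6% with 20 CpG and that of Gad2 64.0% with 13 CpG. Windows that also hold the bases just past the start were listed for 31 of the 43 members, 40 windows in all. Over these, the left arm of RE1 (TTCAGCACC, either strand) was found in 0 windows and the right arm (GGACAGCGC, either strand) in 1, that of Gad2, where its first base lies 155 bases before the start. Of the 32851 windows of all genes, 0.371% held the left and 0.405% the right arm. Their median G and C content was 52.67% with 7 CpG, against 56.17% and 9 CpG in the windows of the members.

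The other cytoskeletal and growth genes of neurons stood on both sides. Stmn2, a stathmin that regulates microtubules in growing axons, had 713 and 1275 counts, or 20.5 and 47.6 CPM, and was 2.32-fold higher in the extracranial library (log2 ratio 1.22, interval 1.08 to 1.35). Tubb3, neuronal beta-tubulin, had 629 and 118 counts, or 18.1 and 4.41 CPM, and its log2 ratio of -2.04 had an interval, -2.33 to -1.75, that lay across the limit of a call. These are both standard marks of young neurons, and they pointed in opposite directions. Map2, which binds microtubules in dendrites, had 139 and 47 counts, and Gap43, a protein of growth cones, had 46 and 11, each lower in the extracranial library beyond counting error. Dcx, doublecortin of migrating neurons, had 5 and 0 counts. Uchl1, an abundant neuronal enzyme of ubiquitin recycling, had the highest level of the intracranial library among the members, with 2958 counts against 919 (85.1 and 34.3 CPM, log2 ratio -1.31, interval -1.42 to -1.20).

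Genes of vesicle release were split in the same way. Snap25, a membrane protein of the vesicle fusion complex, had 830 and 199 counts, or 23.9 and 7.44 CPM (log2 ratio -1.68, interval -1.91 to -1.46). Syt1, the calcium sensor of that complex, had 59 and 152 counts and was 3.35-fold higher in the extracranial library (log2 ratio 1.74, interval 1.30 to 2.20). Syp, the vesicle protein synaptophysin, had 55 and 57 counts, with no difference beyond counting error. Partners of one complex differed between the tumors in opposite directions. Ncam1, an adhesion molecule of neurons and many other cells, had 700 and 1826 counts, or 20.1 and 68.2 CPM (log2 ratio 1.76, interval 1.63 to 1.89). Rbfox3, the nuclear antigen NeuN of mature neurons, had 42 and 63 counts, and its interval of 0.38 to 1.56 lay on the extracranial side. Over the 20 pan-neuronal genes, 19 had a ratio, 8 were higher in each library beyond counting error and 3 were within it, and the median log2 ratio was 0.43. Without Vxn and Lingo2 that median was -0.08, the ratio of Lingo1. The summed level of all 20 genes, Vxn and Lingo2 included, was 231.4 CPM in the intracranial and 322.6 CPM in the extracranial library. Of the extracranial sum, Vxn gave 40.4 and Lingo2 15.9 CPM.

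Transmitter genes were scarce. Slc17a6, the vesicular glutamate transporter of subcortical and sensory neurons, and Th, the first enzyme of catecholamine synthesis, had 0 counts in both libraries. Chat, which makes acetylcholine, had 2 and 0. The glutamate transporter Slc17a7 was the most abundant of the 6 genes, with 49 and 30 counts (1.41 and 1.12 CPM), and its levels did not differ beyond counting error. The enzymes of GABA synthesis went apart, since Gad1 had 8 and 5 counts and Gad2 3 and 25. The ratio of Gad2 was 10.8-fold, with an interval from 3.30-fold to 56.0-fold that kept it outside the calls. Summed over the 6 genes, the level was 1.78 CPM in the intracranial and 2.24 CPM in the extracranial library, the lowest of the 5 groups.

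Of the genes of peripheral sensory neurons, the neurotrophin receptors were lower and peripherin was higher in the extracranial library. Ntrk3, the receptor of neurotrophin 3, had 479 and 163 counts, or 13.8 and 6.09 CPM (log2 ratio -1.18, interval -1.44 to -0.92). Ntrk2, the receptor of BDNF, had 188 and 63 counts (log2 ratio -1.20). Prph, the intermediate filament of peripheral neurons, had 97 and 181 counts, 2.42-fold higher in the extracranial library (log2 ratio 1.28, interval 0.91 to 1.65). Prph therefore stood on the same side as Nefl, its partner in filaments. Avil, an actin-binding protein of sensory ganglia and of tuft cells, had 81 and 67 counts and differed by less than the counting error. Isl1, a homeobox gene needed for sensory neurons, had 3 and 4 counts. Of the 4 genes with a ratio, 2 were thus higher in the tumor at the trigeminal nerve, 1 in the facial tumor, and 1 within counting error.

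Astrocyte genes were low in both tumors and stood on the intracranial side. The group summed to 9.55 CPM in the intracranial and 3.40 CPM in the extracranial library, and of the 5 genes with a ratio 4 were lower in the extracranial library beyond counting error and 1, Gfap, was within it. Their median log2 ratio was -1.50, which is that of Aqp4 with its 0 extracranial counts set to the floor of 3. Aldh1l1, a folate enzyme of astrocytes, was the most abundant, with 147 and 37 counts (4.23 and 1.38 CPM). Slc1a3, a glutamate transporter, had 94 and 35 counts, while the main glutamate transporter of mature astrocytes, Slc1a2, had 6 and 1. Fabp7, a lipid carrier of radial glia, had 44 and 5 counts (log2 ratio -2.76, interval -4.45 to -1.43). Gfap, the astrocyte filament, had 30 and 13 counts, and Aqp4, the water channel of astrocyte endfeet, had 11 and 0, 2.82-fold lower against the floor with an interval of its counts from 1.93-fold. None of these 6 genes reached 5 CPM in either library.

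The oligodendrocyte group fell apart into myelin genes that other cells also read and genes that mark the lineage. Cnp, an enzyme of myelin that many cell types carry, had 1236 and 1865 counts, or 35.6 and 69.7 CPM, and was 1.96-fold higher in the extracranial library (log2 ratio 0.97, interval 0.87 to 1.08). Mbp, myelin basic protein, had 617 and 261 counts, or 17.8 and 9.75 CPM, and was lower there (log2 ratio -0.86, interval -1.08 to -0.65). Olig2 had 0 counts in both libraries. Its relative Olig1, which like Olig2 directs the lineage, had 1 and 0, the myelin surface protein Mog had 1 and 2, and Mobp, a protein of compact myelin, had 3 and 0. Cnp overlaps Dnajc7 by 154 bases on the opposite strand, 4.23% of its length, and Dnajc7 had 3533 and 2978 counts.

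**Figure D3:**
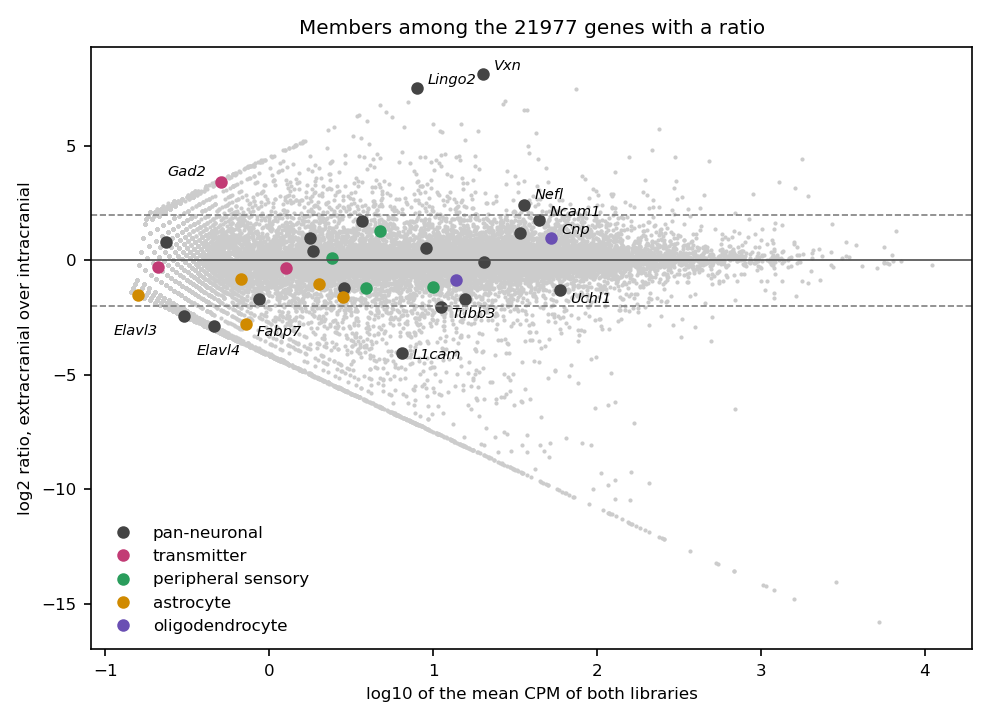
Log2 ratio of the extracranial over the intracranial library against the log10 of the mean CPM of both, for the 21977 genes with 10 or more counts (grey) and the 33 members among them (colored by group). Dashed lines mark 4-fold. Vxn and Lingo2 lie at the upper edge of all genes, and most other members lie between the dashed lines.

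Counts favor long genes, so levels were compared between members per kilobase of exon. On this scale Uchl1 came first in both libraries, with 52.2 CPM per kilobase in the intracranial and 21.04 in the extracranial one, at percentiles 94.0 and 87.8 among 24321 genes with over 3 counts in 1 library or both. Cnp came next in both, with 9.78 and 19.2. From there the order differed. In the intracranial library Tubb3 (9.69), Lingo1 (4.44) and Stmn2 (3.66) followed, and in the extracranial library Nefl (17.8), Vxn (12.4) and Stmn2 (8.51). Among neighbours in these orders, the gap between Cnp and Tubb3 in the intracranial library was smaller than the counting error of either. The median over the 43 members lay at percentile 21.5 in the intracranial and 21.3 in the extracranial library. The median of the 24321 genes was 2.10 and 1.79 CPM per kilobase. The 43 include 7 genes at or under 3 counts in both libraries, which the 24321 leave out. On the same scale all 21928 protein-coding genes, without a count minimum, had their median at percentiles 44.0 and 43.1.

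Further neural genes, outside the 43, were read in 8 companion lists. Of 16 other synaptic genes 15 had a ratio, 3 were higher and 10 lower in the extracranial library beyond counting error, and only Cplx1, a regulator of vesicle fusion with 21 and 0 counts, was called. The most abundant of them was Vamp2, a vesicle protein of the fusion complex, with 3098 and 1664 counts. Their median log2 ratio was -0.59. The 15 matched genes of sensory ganglia gave 8 ratios, of which 3 were higher in each library beyond counting error and 2 within it. The 2 calls were calcitonin genes on the intracranial side, Calca with 2484 and 39 counts (log2 ratio -5.62) and Calcb with 84 and 5. Higher in the extracranial library were Runx1 (1302 and 1650), Runx3 (572 and 521) and Ret (214 and 217), which were not called. Calca also encodes a hormone of endocrine cells, and its reads may be split with Calcb. Of further genes of pain-sensing neurons, Trpv1 had 2 and 1 counts, Scn10a 5 and 0, Scn11a 2 and 2 and Mrgprd 0 in both. Tac1 (13 and 1) and Scn9a (9 and 0) were above the floor in the intracranial library, and P2rx3 (10 and 5) in both.

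Of 7 genes of autonomic neurons 3 had a ratio, and Hand2, a factor of sympathetic neurons and of facial mesenchyme, was called with 1815 and 86 counts (log2 ratio -4.02). Of 12 genes of brain neurons 6 had a ratio, and Bcl11b, a factor of cortical neurons that skin and T cells also carry, was called with 508 and 47 counts (log2 ratio -3.06). Neurod1, Neurod2 and Neurod6 had 0 counts in both libraries. Among 11 genes of neural progenitors 6 had a ratio and 0 were called, with Nes, a filament of progenitors and vessels, the most abundant at 515 and 1003 counts, and with Sox1, Hes5, Neurog1 and Neurog2 at 0 in both libraries. Of 10 other astrocyte genes 9 had a ratio and 3 were called on the intracranial side, Gja1 (7768 and 1324), Gjb6 (423 and 0) and Fgfr3 (620 and 10), which epithelia also carry. Glul, glutamine synthetase, was the most abundant of that list in the extracranial library with 10567 counts against 5839. Of 12 other oligodendrocyte genes 9 had a ratio, with Cldn11 (1 and 48) called on the extracranial side and Sox10 (43 and 0) and Mal (314 and 29) on the intracranial side. Cspg4, which pericytes share, was the most abundant at 2067 and 2676 counts. The 11 genes of REST and its corepressors all had a ratio, 0 were called, and their median log2 ratio was 0.01. Rest itself had 981 and 1010 counts (log2 ratio 0.42, interval 0.29 to 0.55), and the most abundant of its partners, the histone methyltransferase Ehmt2, had 4461 and 4131.

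**Figure D4:**
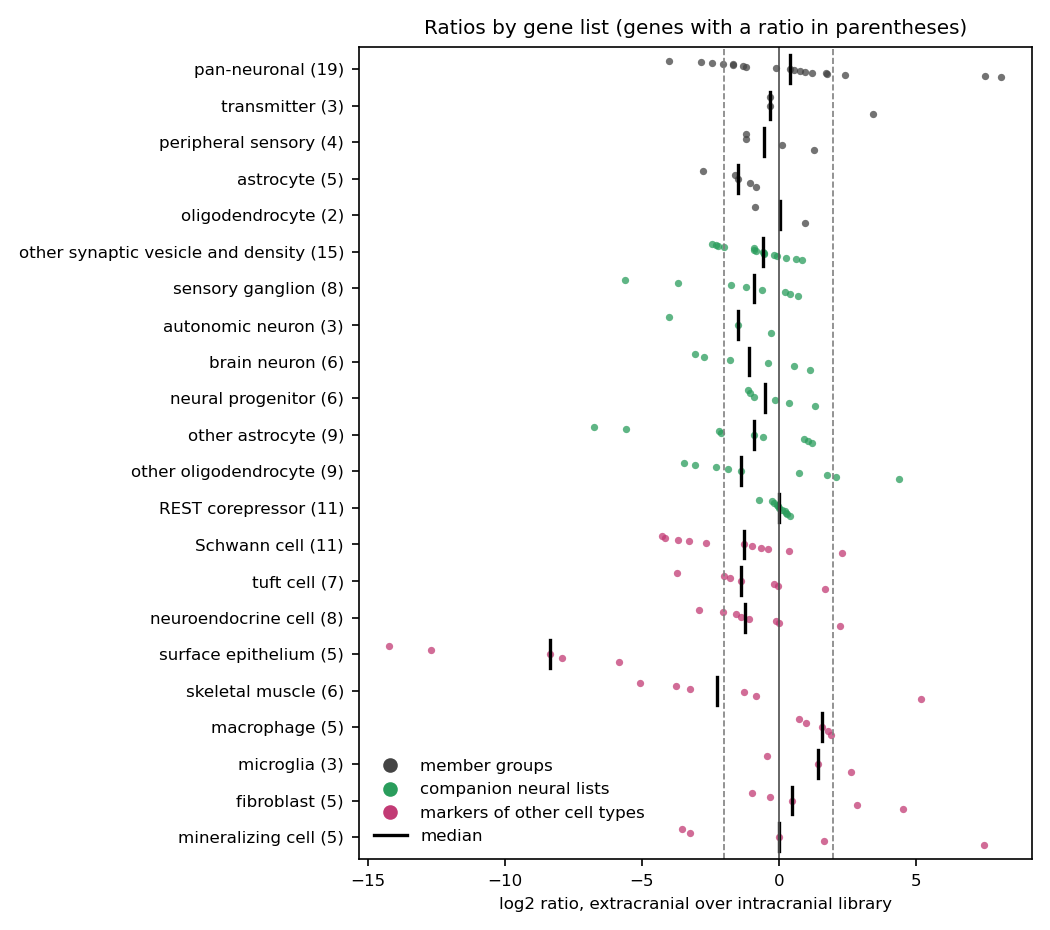
Log2 ratios of the extracranial over the intracranial library for the member groups, 8 companion lists and 9 marker lists of other cell types, 1 point per gene with 10 or more counts and a black bar at the median. Dashed lines mark 4-fold, and the number of genes with a ratio stands behind each name. The astrocyte group has its median at -1.50, the REST list at 0.01, and the surface epithelium list at -8.36.

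Markers of other cells also differed between the libraries. The 11 Schwann cell genes summed to 226.8 CPM in the intracranial and 233.3 CPM in the extracranial library, led by Pmp22 with 6168 and 3623 counts, and 8 of the 11 were lower in the latter beyond counting error. Among those called were Cdh19 (66 and 4), Pou3f1 (75 and 2) and Erbb3 (415 and 51) on the intracranial side and Egr2 (630 and 2396) on the extracranial side, and Sox10, which defines the lineage, was at 0 in the extracranial library. Of the members that Schwann cells also read, Mbp and L1cam were higher in the intracranial library, as Cdh19 and Erbb3 were. Cnp was higher in the extracranial library, the side of only 1 of the 11 Schwann cell genes, Egr2, and opposite to the 8. The 8 neuroendocrine genes summed to 429.1 and 149.6 CPM with 0 called, nearly all of it from Pcsk1 with 14659 and 3859 counts. Beyond counting error 5 of the 8 were higher in the intracranial and 1, Insm1 (2 and 11), in the extracranial library. Of the members that neuroendocrine cells share, Uchl1, Snap25 and Tubb3 were higher in the intracranial library, Ncam1 and Syt1 in the extracranial one. Syp was within counting error. Of 10 tuft cell genes, which bear on Avil, 7 had a ratio, and Pou2f3 was called with 188 and 11 counts. Beyond counting error 4 were higher in the intracranial and 1, Ltc4s (118 and 296), in the extracranial library. Trpm5 (6 and 2), Il25 (0 and 1) and Gfi1b (1 and 2) had few counts in both. The list summed to 139.7 and 65.7 CPM, of which Dclk1, the most abundant with 3579 and 810 counts, gave 103.0 and 30.3. The 5 genes of surface epithelium summed to 3012 and 1.08 CPM, all called, from Krt14 (74653 and 2) down to Epcam (938 and 1), with Krt5 (25883 and 0) and Trp63 (1284 and 0) at 0 in the extracranial library and Cdh1 at 1906 and 26.

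On the extracranial side, 5 of 5 macrophage genes were higher beyond counting error, led by C1qa with 23483 and 53683 counts, and their sum was 1366 CPM in the intracranial and 4067 CPM in the extracranial library, with 0 called. The 4 microglia genes summed to 110.3 and 118.3 CPM, with Tmem119 at 3209 and 1836 counts and Sall1 at 3 and 0, while P2ry12 (609 and 1272) and Siglech (12 and 58) were higher in the extracranial library, and 0 were called. Of the 5 fibroblast genes, Dcn (3745 and 21130) and Lum (853 and 15309) were called on the extracranial side, Col1a2 was the most abundant with 60210 and 64597, and the sums were 3249 and 4801 CPM. Of 6 genes of mineralizing cells, Dmp1 was called with 29 and 3988 counts, Ibsp (186 and 15) and Bglap (60 and 4) were called on the other side, and Dspp had 0 in both libraries. Of 7 skeletal muscle genes, Musk (2 and 84) was called on the extracranial and Myh4 (53 and 0) and Myh2 (129 and 1) on the intracranial side, the most abundant gene of both libraries together was Chrna1 with 669 and 292, and the sums were 41.4 and 20.6 CPM. The part of any of these cells in the ratios of the members was not tested.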

How the data were processed

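The authors isolated RNA from fresh frozen tumor, selected poly(A) RNA, prepared directional libraries and sequenced single reads of 72 cycles. They aligned these with STAR (version 2.7.9a) to GRCm39 with Ensembl 104 genes and deposited raw counts per gene from featureCounts, without normalization. The strand setting of the counter and its handling of multimapping reads are not given in the sources used here. Counts of overlapping and of near-identical genes are therefore uncertain.

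Libraries were scaled by TMM of edgeR 4.0.16 in R 4.3.3 (factors 1.006 and 0.9942) and turned into CPM with Clopper-Pearson 95% intervals. Ratios, with a conditional exact binomial 95% interval, were formed for genes with 10 or more counts over both libraries. Counts of 3 or fewer were set to 3 for the plotted ratio and for medians, while intervals used the counts themselves. Folds printed for genes with 1 to 3 counts are those of the counts. No model with a replicate error could be fitted, since each location has 1 library. Reads carry no molecular identifiers, so intervals and floors cover counting error only. Symbols and exon lengths came from GENCODE M21, an older annotation, which named 94.1% of the IDs. 1 companion gene, Drgx, was not matched. Some genes of the companion and marker lists are counted in the lists but not reported here by name.

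The 43 members and all lists were chosen with earlier results of these data known. All members were accounted for. Described in detail were those called, those with 200 or more counts in either library, those at 3 or fewer in both, and those next to the limit of a call, and from other lists the called and the most abundant genes. Other genes were chosen after their values were seen. Alternatives comprised DESeq2 1.42.0 size factors, total counts, upper quartile scaling, no count minimum, 100 or more counts, a 2-fold limit, no interval, a prior count of 2 and no division by length. Calls were checked on simulated counts that held counting error only, so differences between animals were not part of that check.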

Additional observations from a re-analysis of the deposited data

How the results depend on the processing

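With DESeq2 size factors and with upper quartile scaling, 1 member was called on the intracranial side instead of 2, since the interval of Elavl3 no longer cleared 4-fold, and a minimum of 100 or more counts also left 1. An interval beyond 2-fold gave 7 members on the extracranial and 8 on the intracranial side. A ratio beyond 4-fold without an interval gave 4 on the extracranial and 5 on the intracranial side. The share of all genes that pass these looser limits was not computed, so these counts have nothing to be set against. Without members that overlap an expressed gene, a choice made after seeing the data, 1 was called on each side, because Vxn, Nefl and L1cam were then left out. Among protein-coding genes alone 8.94% were called, against 7.19% of all genes in either direction. The scalings moved every log2 ratio by 0.02, -0.02 and 0.04, no member's ratio changed sign under them, and with DESeq2 size factors and total counts all levels stayed within their intervals. Without Vxn and Lingo2, another choice made after seeing the data, 1 member was called on the extracranial side, the median over all members was -0.83 and the pan-neuronal median changed sign (-0.08 instead of 0.43). The median over all members changed sign with 100 or more counts (0.10 instead of -0.33), while those of the 5 groups kept theirs under the scalings, the prior count and that minimum, but the transmitter group gave no value there. By CPM without division by length, 9 of the 10 highest members were shared in the intracranial and 8 in the extracranial library. No paired analysis was possible because there was 1 tumor per location, and for the same reason neither library could be left out. Depth limits the genes below 10 counts, 10 of the 43 members, for which no difference was detectable, and with 2 libraries no value has a replicate error.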

Other observations

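Relatives of called and of other members were read after their values had been seen, as a description of these libraries. L1cam belongs to a family of 4 adhesion molecules that bind ankyrin beneath the axon membrane. All 4 were called as higher in the intracranial library, where 5.41% of all genes with a ratio were called. Chl1 had 637 counts in the intracranial and 19 in the extracranial library (log2 ratio -4.69, interval -5.43 to -4.04). Nfasc, which anchors the node and the initial segment of axons, had 283 and 12 (log2 ratio -4.18), and Nrcam had 880 and 108 (log2 ratio -2.65). Summed over the family, the level was 64.0 CPM in the intracranial and 5.94 CPM in the extracranial library. Ncam1, an adhesion molecule of another family, stood on the opposite side, and its relative Ncam2 had 4 and 6 counts.

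None of the other families read was called as a whole. Stmn1, the stathmin of dividing cells, was higher in the extracranial library with 2014 and 2854 counts, as Stmn2 was, while the neuronal Stmn3 had 47 and 1 and Stmn4 14 and 0. Ina, the internexin filament of brain neurons, had 13 and 0 counts beside Nefl at 396 and 1613. Marcks (4065 and 12747) and Basp1 (1017 and 3283), membrane proteins of growth cones that many cells carry, were higher in the extracranial library (log2 ratios 2.03 and 2.07), whereas Gap43, with which they are often grouped, was lower at -1.69. Of the neurotrophins, Bdnf had 89 and 70 counts and Ntf3 28 and 6. With their receptors, 6 genes had a ratio and 0 were called. Of these, 4 were higher in the intracranial library beyond counting error and 2 within it. Lingo3, with 16 and 9 counts, and Lingo4, with 23 and 1, did not share the ratio of Lingo2.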
